A study of Homo sapiens with 6 samples.

Results

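The kallikrein genes form a cluster on the long arm of chromosome 19 and encode secreted serine proteases. The 7 genes KLK2, KLK3, KLK4, KLK15, KLKP1, KLK10 and KLK11 were taken by name, as kallikreins of prostate interest, from the 60658 Ensembl identifiers of the deposited tables, and all 7 were matched. This choice was made with earlier results of these data known. RNA was sequenced from C4-2B MDVR cells, an enzalutamide-resistant derivative of the prostate cancer line C4-2B, and from CWR22Rv1 cells, another castration-resistant prostate cancer line. Cultures received DMSO vehicle, 10 µM apoptozole (APO) or 10 µM VER155008 (VER) for 48 h, with 1 library for each of the 6 conditions. APO and VER are small molecules that block the ATPase of the chaperone HSP70. C4-2B MDVR cells were maintained in medium with 20 µM enzalutamide, an antiandrogen drug, and CWR22Rv1 cells in medium without it. Line and medium thus cannot be told apart. The paper does not state whether enzalutamide was present during the 48 h of treatment. The labels call the cells of all 6 libraries parental and give LNCaP-C4-2B as source for C4-2B MDVR, whereas the titles name C4-2B MDVR, which was used. Without replicates no p-value is given, and no difference below has a replicate check. The 3 values of a line are always given in the order DMSO, APO, VER, and a pair of differences from DMSO in the order APO, VER.

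In the prostate, luminal epithelial cells secrete kallikreins into the seminal fluid, where a cascade of proteases activates one another and liquefies the semen clot. KLK3 encodes prostate-specific antigen (PSA), the serum marker of prostate cancer, and KLK2 encodes its closest relative, which can activate the PSA precursor. Androgens raise the transcription of KLK2 and KLK3 through response elements in their promoters and enhancers, and both are textbook readouts of androgen signalling.

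The 7 genes lie between 50825289 and 51028039 on chromosome 19 in GENCODE 29 (GRCh38), in the order KLK15, KLK3, KLK2, KLKP1, KLK4, KLK10 and KLK11, with the 5 first-named next to each other among the kallikreins. KLK3 (ENSG00000142515, 50854915 to 50860764) and KLK2 (ENSG00000167751, 50861568 to 50880567) are on the plus strand and the other 5 are on the minus strand. KLK15 (ENSG00000174562) spans 50825289 to 50837213, KLK4 (ENSG00000167749) 50906352 to 50910738, KLK10 (ENSG00000129451) 51012739 to 51020175 and KLK11 (ENSG00000167757) 51022216 to 51028039. KLKP1 (ENSG00000197588, 50882096 to 50896398) is annotated as a transcribed pseudogene. The antisense genes annotated over KLK15 and over KLK10 were listed at 0 in all 6 libraries.

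The promoters of KLK3 and KLK2 are shown because these neighbours had the most negative differences with APO, and 1 of KLK4 because KLK4 departed from them with VER. Each is the stretch of 250 bases before a RefSeq start (GRCh38.p14), written along the gene. Capitals mark matches to a relaxed androgen response element (GAACA, any 4 bases, GT, any 1 base, C) and to the TATA box TATAAA, both searched on both strands. The positions are chr19:50854665-50854914 (plus strand) for KLK3, chr19:50873189-50873438 (plus strand) for KLK2, whose RefSeq start lies inside the longer GENCODE gene, and chr19:50911396-50911645 (minus strand) for KLK4. The RefSeq start of this KLK4 window lies outside the GENCODE gene. Another KLK4 window, chr19:50910739-50910988, directly adjoins the GENCODE gene and is not shown.
KLK3: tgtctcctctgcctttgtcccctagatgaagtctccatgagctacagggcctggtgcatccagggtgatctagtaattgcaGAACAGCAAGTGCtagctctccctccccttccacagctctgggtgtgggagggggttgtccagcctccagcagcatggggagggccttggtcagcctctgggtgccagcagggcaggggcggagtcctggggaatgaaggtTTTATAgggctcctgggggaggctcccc
KLK2: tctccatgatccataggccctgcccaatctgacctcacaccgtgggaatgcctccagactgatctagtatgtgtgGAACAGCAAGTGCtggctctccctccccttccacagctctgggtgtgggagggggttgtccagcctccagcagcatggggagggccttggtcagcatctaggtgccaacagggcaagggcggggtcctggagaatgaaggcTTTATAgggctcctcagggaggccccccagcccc
KLK4: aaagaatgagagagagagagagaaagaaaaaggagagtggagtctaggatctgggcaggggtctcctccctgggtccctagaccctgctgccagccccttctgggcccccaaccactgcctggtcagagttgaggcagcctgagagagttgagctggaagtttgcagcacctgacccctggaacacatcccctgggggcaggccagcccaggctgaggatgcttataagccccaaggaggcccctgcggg
KLK3 and KLK2 shared 205 identical bases over 259 alignment columns (79.2%), with an unbroken shared run of 80 bases that starts at -154 in KLK3 and at -160 in KLK2. The KLK4 window shown shared 46.4% with KLK3 and 45.5% with KLK2. Every pair of windows of different members, other than KLK3 with KLK2, lay between 39.7% and 48.6%. The 15 bases around the element read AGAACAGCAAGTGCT in KLK3, from -170 to -156, and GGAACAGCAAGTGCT in KLK2, from -176 to -162, which differ by A1G counted from the first base in KLK3. The relaxed pattern was written to fit the known KLK3 element and was present in 0.601% of all 35116 RefSeq windows of this length. It was found in 2 of the 10 windows of the members, those of KLK3 and KLK2, and the complete palindrome (AGAACA, any 3 bases, TGTTCT) was in none of the 10. The exact TATA box pattern, present in 10.7% of all windows, was found in KLK3, KLK2 and 1 of the 2 KLK15 windows. In KLK3 and KLK2 it matched on the opposite strand, as TTTATA. The KLK4 window shown holds the near match tataag, which this search did not count. No window was listed for KLKP1. These matches describe the letters only. KLK2 and KLK3 transcripts shared 11 stretches of 50 bases, of 5119 in KLK3 and 6910 in KLK2, and no other member shared any with another kallikrein gene.

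Of the 7 genes, 5 exceeded 0.1 FPKM in some library of C4-2B MDVR, and all 7 did so in CWR22Rv1. FPKM counts fragments relative to transcript length and to the size of the library, so genes are compared per length. KLK2, KLK3 and KLK4 were the abundant members. With vehicle KLK2 reached 229 FPKM in C4-2B MDVR, rank 341 among all genes over 0.1 FPKM of that library, and 83.4 FPKM in CWR22Rv1 cells. KLK3 was at 77.8 and 30.2 FPKM in the same libraries. Both were thus higher in C4-2B MDVR cells, by 1.46 and 1.36 on the log2(FPKM + 0.1) scale, which is used for all differences here. KLK4, a protease of the prostate and of developing enamel, had the opposite order, with 64.5 FPKM in C4-2B MDVR and 201 FPKM in CWR22Rv1 cells, a difference of -1.64. KLK15, a trypsin-like member that can activate the PSA precursor, was at 0.932 and 2.95 FPKM, and KLKP1 at 0.547 and 5.03 FPKM. KLK11, which is made by many secretory epithelia, was at 21.8 FPKM in CWR22Rv1 cells and listed at 0 in all 3 C4-2B MDVR libraries. KLK10 was at 0.955 FPKM in CWR22Rv1 cells against 0.0718 FPKM in vehicle-treated C4-2B MDVR. With vehicle, 2 members were thus higher and 5 lower in C4-2B MDVR than in CWR22Rv1 by more than 1.2-fold, where 39.2% of the 20903 genes compared were higher and 43.2% lower.

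**Figure D1:**
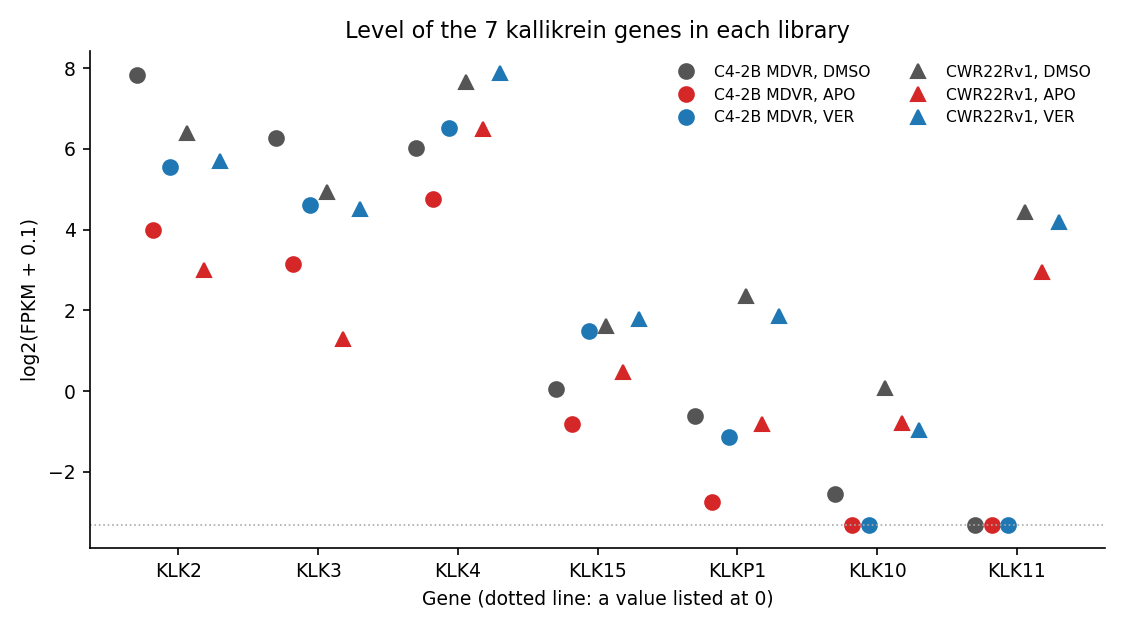
Level of each kallikrein gene (horizontal axis) as log2(FPKM + 0.1) (vertical axis) in each of the 6 libraries, with circles for C4-2B MDVR, triangles for CWR22Rv1 and colours for DMSO (grey), APO (red) and VER (blue). KLK2 and KLK3 are highest in C4-2B MDVR with DMSO, KLK4 is highest in CWR22Rv1, and the 3 C4-2B MDVR points of KLK11 lie on the dotted line that marks a value listed at 0.

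KLK2, KLK3 and KLKP1 had the most negative differences of the members with APO, from -3.84 to -2.12 over the 2 lines. A gene was counted as higher or lower past 1.2-fold, the threshold used in the study. KLK2 was at 229, 15.9 and 46.5 FPKM in C4-2B MDVR. Its values in CWR22Rv1 were 83.4, 7.91 and 52.0 FPKM. The APO library was the lowest in each line and VER lay between APO and DMSO. The KLK2 differences were -3.84 and -2.30 in C4-2B MDVR, and -3.38 and -0.68 in CWR22Rv1. With APO KLK2 ranked 78 from the lowest of 20122 genes in the former line and 167 of 21608 in the latter. KLK3 was at 77.8, 8.84 and 24.4 FPKM in C4-2B MDVR, and at 30.2, 2.33 and 22.7 FPKM in CWR22Rv1. KLK3 differed by -3.12 and -1.67 in C4-2B MDVR and by -3.64 and -0.41 in CWR22Rv1. Its APO ranks from the lowest were 169 and 116.

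The pseudogene KLKP1, next to KLK2, had the same order of libraries at a low level. It was at 0.547, 0.0492 and 0.355 FPKM in C4-2B MDVR, and at 5.03, 0.473 and 3.53 FPKM in CWR22Rv1. The CWR22Rv1 values give differences of -3.16 and -0.50. In C4-2B MDVR they were -2.12 and -0.51, where the levels lie near the pseudocount of 0.1. With a pseudocount of 1 the APO difference was -0.56 and the VER difference -0.19, within 1.2-fold, in C4-2B MDVR, and they were -2.03 and -0.41 in CWR22Rv1.

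KLK4 and KLK15, which lie on either side of these 3 genes, were lower with APO and above DMSO with VER. KLK4 was at 64.5, 26.9 and 91.1 FPKM in C4-2B MDVR, and at 201, 90.5 and 234 FPKM in CWR22Rv1. The order was the same in both lines, with APO lowest and VER highest. KLK4 differed by -1.26 and 0.50 in C4-2B MDVR and by -1.15 and 0.22 in CWR22Rv1, the last of which is within 1.2-fold. KLK15 was at 0.932, 0.470 and 2.71 FPKM in C4-2B MDVR, and at 2.95, 1.30 and 3.37 FPKM in CWR22Rv1. Its libraries had the order of those of KLK4. The KLK15 differences were -0.86 and 1.44 in C4-2B MDVR, and -1.12 and 0.19, the latter within 1.2-fold, in CWR22Rv1. With VER it ranked 1631 from the highest of the 20122 genes in the former line. With a pseudocount of 1 the C4-2B MDVR differences of KLK15 were -0.39 and 0.94, the latter no longer past 2-fold.

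KLK10 and KLK11 could be compared in CWR22Rv1 cells only. KLK11 was at 21.8 FPKM with DMSO, 7.65 with APO and 18.3 with VER, differences of -1.49 and -0.25, the latter within 1.2-fold. KLK10, first described as lost in tumour cells of the breast, was at 0.955, 0.482 and 0.417 FPKM and was lower with both inhibitors, by -0.86 and -1.03. At these low levels a pseudocount of 1 gave -0.40 and -0.46. KLK10 was the only member at its lowest with VER in this line. Under either inhibitor KLK10 was listed at 0 in C4-2B MDVR.

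In counts, with APO all 5 members compared were lower in C4-2B MDVR, where 35.4% of the 20122 genes compared were lower and 37.7% higher. All 7 were lower in CWR22Rv1, where 39.2% of 21608 genes were lower and 35.6% higher. The median difference of the members was -2.12 and -1.49, against medians of 0 and -0.01 over all genes. Past 2-fold, 4 of 5 and 6 of 7 members were lower, where 13.3% and 16.8% of all genes were. With VER 3 members were lower and 2 higher in C4-2B MDVR cells, where 34.9% of genes were lower and 35.6% higher. In CWR22Rv1 cells with VER 4 members were lower, none was higher and 3 were within 1.2-fold, where 32.3% of genes were lower and 32.1% higher. The medians with VER were -0.51 and -0.41, against 0 and -0.00010 over all genes. Past 2-fold with VER, 2 members were lower and 1 higher of 5 in C4-2B MDVR, where 13.3% and 14.4% of genes were, and 1 of 7 was lower in CWR22Rv1, where 8.92% were. The VER shares lie closer to those of all genes than the APO shares do. As the members were chosen with earlier results of these data known, these counts are a description. Both inhibitors are set against the same DMSO library of the line, so an error in it would move both differences.

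**Figure D2:**
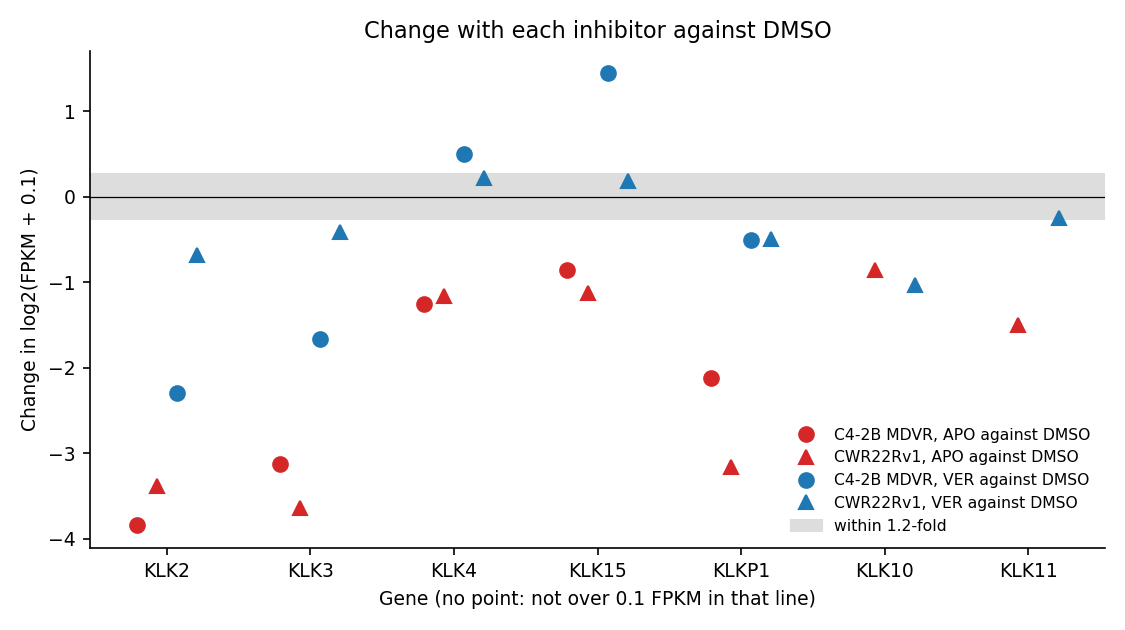
Difference in log2(FPKM + 0.1) between each inhibitor and DMSO (vertical axis) for each kallikrein gene (horizontal axis), with APO in red, VER in blue, circles for C4-2B MDVR and triangles for CWR22Rv1; the grey band is within 1.2-fold. All APO points lie below the band, from -3.84 for KLK2 to -0.86, whereas with VER the points of KLK4 and KLK15 lie above 0, up to 1.44.

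The makeup of kallikrein RNA differed between the libraries. Summed over the 7 members, the level was 373, 52.1 and 165 FPKM in C4-2B MDVR, and 346, 111 and 335 FPKM in CWR22Rv1. KLK2 held 61.1%, 29.9% and 28.1% of the FPKM of all 16 kallikrein genes of the cluster in C4-2B MDVR. KLK4 held 17.2%, 50.6% and 54.9% in the same libraries and was the most abundant kallikrein there with either inhibitor. In CWR22Rv1 cells KLK4 was the most abundant under every condition, with 46.5%, 58.5% and 59.0%. The ratio of KLK4 to KLK3 was 0.829, 3.04 and 3.73 in C4-2B MDVR, and 6.67, 38.8 and 10.3 in CWR22Rv1. KLK2 and KLK3 kept closer to each other, with a ratio of KLK2 to KLK3 from 1.80 to 3.39 over the 6 libraries. Over the 6 libraries the centred profiles of KLK2 and KLK3 differed by a root mean square of 0.32 on the log2 scale, and those of KLK4 and KLK15 by 0.38. KLK3 and KLK4 differed by 1.68. These 6 points share their lines and DMSO libraries and are given as a description.

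**Figure D3:**
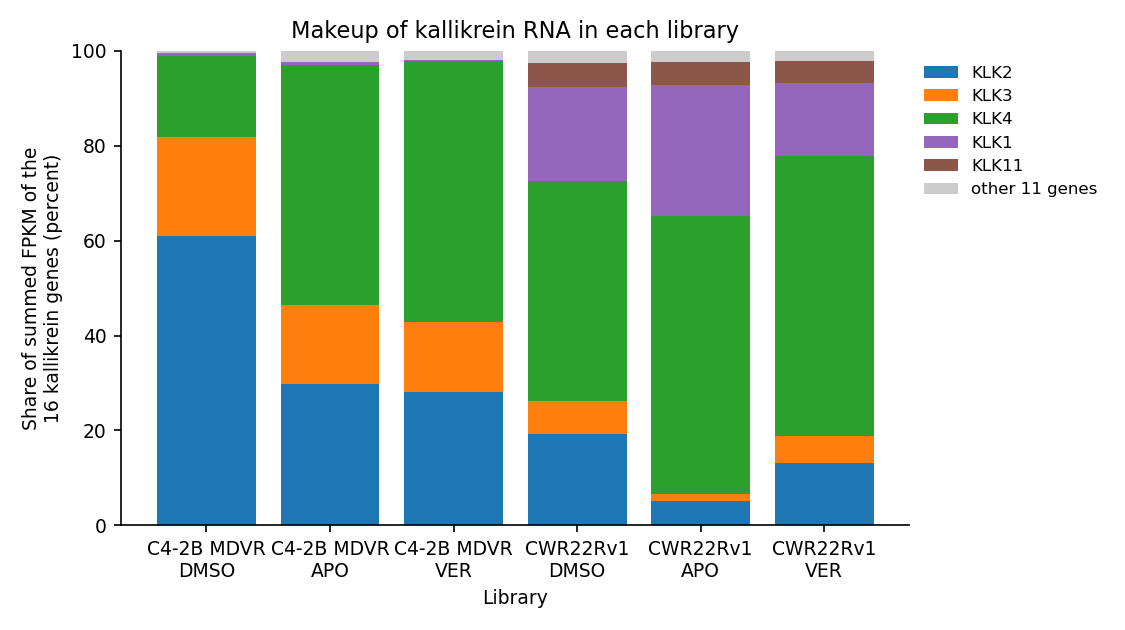
Share of the summed FPKM of the 16 kallikrein genes (vertical axis, percent) held by each gene in each library (horizontal axis). In C4-2B MDVR cells KLK2 holds 61.1% with DMSO against 29.9% and 28.1% with APO and VER, while KLK4 takes 50.6% and 54.9%, and KLK1 and KLK11 are visible in CWR22Rv1 cells.

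The cluster holds 9 further kallikrein genes, of which KLK1 lies before KLK15, KLK5 to KLK9 lie between KLK4 and KLK10, and KLK12 to KLK14 follow KLK11. KLK1, the tissue kallikrein that releases kinins, was the most abundant of them, at 85.3, 42.7 and 61.2 FPKM in CWR22Rv1. In C4-2B MDVR it was at 1.74, 0.345 and 0.479 FPKM. KLK1 was thus lower with each inhibitor, at -2.05 and -1.67 in C4-2B MDVR and at -0.997 and -0.48 in CWR22Rv1. The others (KLK5 to KLK9 and KLK12 to KLK14) stayed at or below 1.04 FPKM in each library, and KLK9 was listed at 0 in all 6. Of the 9 genes, 4 could be compared in C4-2B MDVR cells, of which 2 were lower and 2 higher with APO, and 3 lower and 1 higher with VER. In CWR22Rv1 6 could be compared, of which 5 were lower and 1 higher with each inhibitor. Their medians were -0.36 and -1.29 in C4-2B MDVR, and -1.14 and -1.08 in CWR22Rv1. Differences against a library at 0 enter the counts and medians of these and the following lists through the pseudocount. Over all genes compared in C4-2B MDVR, 35.4% were lower and 37.7% higher with APO, and 34.9% and 35.6% with VER. The shares in CWR22Rv1 were 39.2% and 35.6% with APO, and 32.3% and 32.1% with VER. Outside the cluster, C19orf48, chosen after its values were seen, was at 398, 146 and 233 FPKM in C4-2B MDVR, and at 349, 185 and 316 FPKM in CWR22Rv1 cells. CTU1, a tRNA-modifying enzyme that follows KLK14, differed by -0.60 and -0.19 in C4-2B MDVR and by 0.09 and 0.28 in CWR22Rv1. LINC01869, next to KLK1, differed by 0.20 and 0.05 in C4-2B MDVR and by 0.83 and -0.31 in CWR22Rv1 cells. The flanking SNORD88A, SNORD88C, SIGLEC18P and SIGLEC9 were listed at 0 in all 6 libraries. SNORD88A and SNORD88C are small nucleolar RNA genes of 91 bases each. The labels describe a poly(A) kit, so a value of 0 for these 2 is not read as absence.

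**Figure D4:**
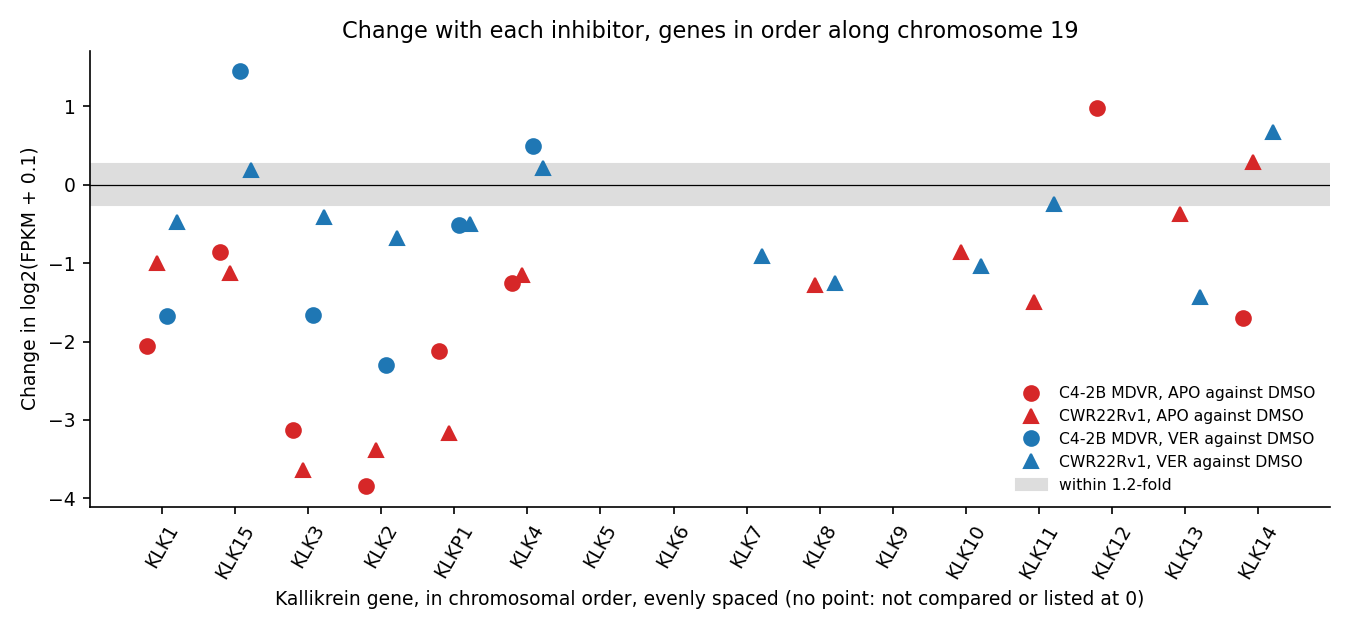
Difference in log2(FPKM + 0.1) between each inhibitor and DMSO (vertical axis) for the 16 kallikrein genes in their order along chromosome 19, evenly spaced (horizontal axis), with symbols as in the plot of changes; genes not compared, or listed at 0 in a library of the comparison, have no point. The lowest APO values belong to KLK3, KLK2 and KLKP1, and the VER points of KLK15 and KLK4 on either side lie above 0.

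With the members themselves left out, 14166 genes whose mean reached 1 FPKM were searched for profiles over the 6 libraries like those of KLK3, KLK2 and KLK11. The genes most like KLK3 were AC011445.1, SLC45A3, AC097468.3, FASN and AC096772.1, with root mean square differences of 0.41 to 0.56. SLC45A3, a prostate membrane transporter protein, was the closest of these genes to KLK2 (0.39), followed by FASN, the fatty acid synthase (0.47), DOK3, AC011445.1 and ATG9B. KLK11 was most like SRRM4 (0.14), SFN, METTL7B, VIL1 and CES5AP1, whose profiles share a high level in CWR22Rv1 and at most 0.609 FPKM in C4-2B MDVR.

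Other androgen-induced genes gave a setting for these values. Of 15 such genes, APO gave 14 lower and 0 higher in C4-2B MDVR and VER 13 lower and 1 higher, with medians of -0.92 and -0.92. In CWR22Rv1 10 were lower and 1 higher with APO, the last being TRPM8, which was listed at 0 with DMSO. With VER 5 were lower and 3 higher there, and the medians were -0.40 and 0, the latter being the value of TRPM8, also listed at 0 with VER. Of all genes compared in C4-2B MDVR, 35.4% were lower and 37.7% higher with APO, and 34.9% and 35.6% with VER. In CWR22Rv1 the shares were 39.2% and 35.6% with APO, and 32.3% and 32.1% with VER. The 5 of 15 lower with VER in CWR22Rv1 thus lie near the share of all genes. SLC45A3 had the most negative difference of the 15 with APO, -3.09 in C4-2B MDVR and -2.65 in CWR22Rv1, and FKBP5, a co-chaperone of steroid receptors, was at -2.59 and -0.99 in the same order. The lineage factors FOXA1 and HOXB13 had APO differences of -1.26 and -2.00 in C4-2B MDVR and of -0.25 and -0.64 in CWR22Rv1. Of 4 receptor and lineage genes 3 were lower and 1 higher with each inhibitor in C4-2B MDVR (medians -1.08 and -0.46), and 2 were lower and 1 higher in CWR22Rv1 (medians -0.44 and -0.30). The higher gene was NR3C1, which in C4-2B MDVR was listed at 0 with DMSO and reached only 0.126 and 0.101 FPKM. In CWR22Rv1 NR3C1 was at 3.53, 10.3 and 5.57 FPKM. Of 7 compared prostate-secreted and surface genes, 4 were lower and 2 higher with APO in C4-2B MDVR and 3 and 3 with VER (medians -0.85 and 0.17). The counts were 3 and 0 with APO and 0 and 6 with VER in CWR22Rv1 (medians 0 and 0.50). That APO median of 0 is the value of MSMB, listed at 0 with both DMSO and APO in CWR22Rv1. MSMB was also among the 6 higher with VER, at 0.496 FPKM. ACPP, prostatic acid phosphatase, followed KLK4 and KLK15 in sign, at -1.74 and 1.10 in C4-2B MDVR and at -1.07 and 0.50 in CWR22Rv1.

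**Figure D5:**
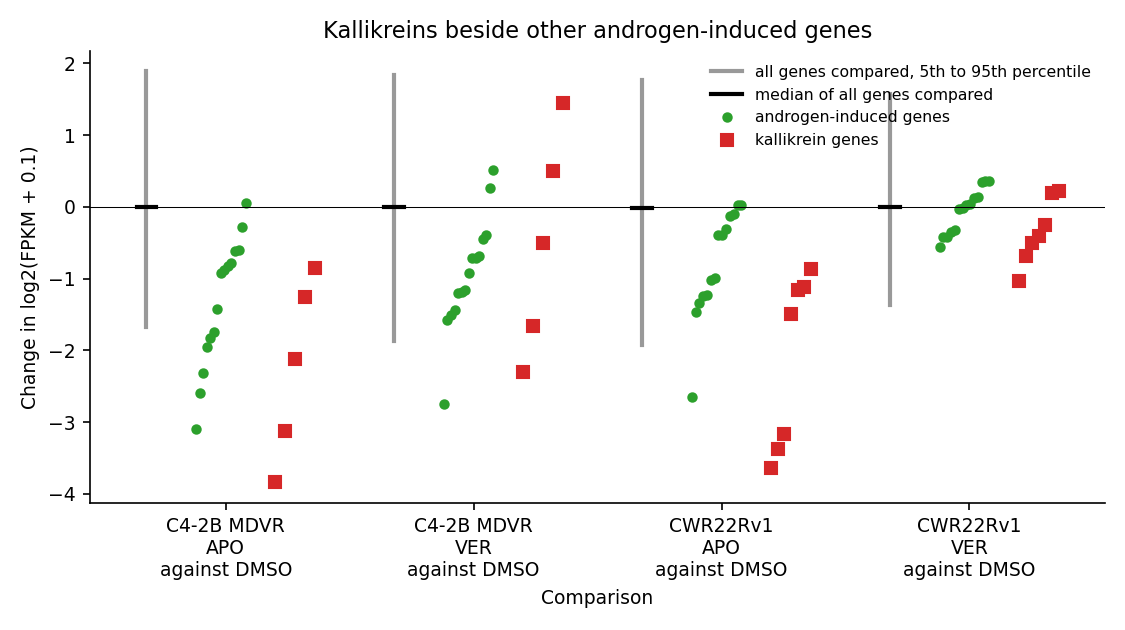
Difference in log2(FPKM + 0.1) from DMSO (vertical axis) in each comparison (horizontal axis) for the kallikrein genes (red squares) and the androgen-induced genes (green circles), beside the 5th to 95th percentile and the median of all genes compared (grey and black); a gene listed at 0 in a library of the comparison has no point. With APO all kallikrein points lie below 0, and with VER in CWR22Rv1 cells the kallikrein points lie between -1.03 and 0.22.

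Genes that act on or with kallikreins were inhibitors, substrates and receptors. Of 6 inhibitors, 3 were compared in C4-2B MDVR, of which A2M was listed at 0 with DMSO and SPINK1 at 0 with either drug, so no median is given. In CWR22Rv1 0 of 4 were lower, and 2 and 3 were higher. Among these 4, SERPINA3 was listed at 0 with DMSO and VER and counted as higher with APO through the pseudocount, so no median is given here either. The other differences in CWR22Rv1 were -0.14 and 1.13 for A2M, -0.05 and 1.17 for SPINK1, and 1.28 and 0.40 for SPINK5. SERPINA3, the antichymotrypsin that binds PSA in serum, was at 0.544, 9.72 and 5.69 FPKM in C4-2B MDVR, differences of 3.93 and 3.17, and at most 0.141 FPKM in CWR22Rv1. SERPINA5 was at most 0.0668 FPKM in any library. Of 9 substrates and receptors, 8 were compared in C4-2B MDVR, with 6 lower and 2 higher with APO, and 5 and 3 with VER (medians -0.69 and -0.47). In CWR22Rv1 6 were compared, with 3 and 2 for APO and 1 and 3 for VER (medians -0.44 and 0.15). Among all genes compared in C4-2B MDVR, 35.4% were lower and 37.7% higher with APO, and 34.9% and 35.6% with VER. For CWR22Rv1 the shares were 39.2% and 35.6% with APO, and 32.3% and 32.1% with VER. IGFBP3, an insulin-like growth factor binding protein that PSA cleaves, was higher in each comparison, by 1.44 and 1.27 in C4-2B MDVR and by 1.84 and 1.03 in CWR22Rv1. The semen clot genes SEMG1 and SEMG2 were at most 0.133 FPKM.

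The libraries held markers of luminal prostate epithelium, with KRT8, KRT18, HOXB13 and FOLH1 all at or above 24.4 FPKM. Of the 13 basal, fibroblast, leukocyte and endothelial markers, PECAM1, KRT5 and TP63 were listed at 0 in each library, while COL1A1 was at 3.32 to 10.8 FPKM in all and LUM at 13.1 to 26.2 FPKM in CWR22Rv1 and at most 0.274 FPKM in C4-2B MDVR. The part of these cell type markers in the results was not tested. Genes of the mitochondrial chromosome held 14.8% to 16.4% of FPKM in C4-2B MDVR libraries, and 25.7%, 10.4% and 25.7% in those of CWR22Rv1. Their part in the results was tested only by rescaling. Scaled without these genes, the APO differences in CWR22Rv1 cells were -3.54 for KLK2, -3.82 for KLK3 and -1.31 for KLK4. Fewer cells of a type and less RNA per cell cannot be told apart in such libraries. Relative depth, read from ratios of low FPKM values, was 1.14 to 1.64 times that of the C4-2B MDVR DMSO library in the other libraries.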

How the data were processed

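Libraries of mRNA, made from total RNA of 6 cultures, were sequenced as paired-end reads. Per the labels, the authors processed the reads with HISAT, Cufflinks and Cuffnorm on GRCh38 and deposited FPKM values per gene, scaled between libraries by Cuffnorm. Tool versions and the annotation release are not given in the sources used here. The labels describe a stranded poly(A) kit and the paper another kit, and whether strand was used in counting is not given in the sources used here. FPKM are not counts, totals are not in the tables, and no attempt to recover reads was made, so counting intervals are left out.

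Of 60658 identifiers, 57047 were matched to GENCODE 29 (GRCh38), which gave symbols and coordinates. Promoters are from RefSeq (GRCh38.p14), where 6 of the 7 members were listed. Differences of log2(FPKM + 0.1) were taken for genes over 0.1 FPKM in at least 1 library of the line (between lines, of both DMSO libraries). The threshold was 1.2-fold. With 1 library for each condition no test was made.

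The genes named are the members, the other kallikreins, the 3 flanking genes on each side, lists of inhibitors, substrates and receptors, prostate secreted and surface genes, androgen-induced genes and receptor and lineage factors, and the 5 genes most like KLK3, KLK2 and KLK11. The members and lists were chosen with earlier results of these data known. Some genes of these lists are not reported here. The alternatives were pseudocounts of 0.01 and 1, other filters, 3 rescalings and thresholds of 1.5 and 2-fold. The functions were tested on simulated data. Python 3.11.15, pandas 2.3.3, numpy 2.4.6 and matplotlib 3.10.9 were used.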

Additional observations from a re-analysis of the deposited data

Results flagged for a closer look

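Among the kallikreins and the genes of the lists, those at 0 in none of the 4 libraries compared for an inhibitor were examined. Some lay past 1.2-fold in opposite directions in the 2 lines under that inhibitor. These differences between lines were not tested, since each rests on 4 single libraries. The kallikrein KLK14 differed with APO by -1.70 in C4-2B MDVR and by 0.30 in CWR22Rv1. It was at 0.423 FPKM or less in every library and listed at 0 in C4-2B MDVR with VER. FN1, which encodes fibronectin, differed with APO by -0.82 in C4-2B MDVR and by 0.55 in CWR22Rv1, and with VER by -0.78 and 1.01. AZGP1, a prostate secretory protein, differed with APO by 0.89 and -0.98 in the same order. With VER, 4 other genes with no library at 0 were lower in C4-2B MDVR and higher in CWR22Rv1. F2RL1, a receptor that kallikreins can cleave, was at -0.61 and 0.27. TMPRSS2 was at -0.72 and 0.36, ACSL3 at -1.44 and 0.36, and PMEPA1 at -1.19 and 0.35.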

How the results depend on the processing

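No paired analysis was possible because no result here comes from a test and each condition has 1 library, with no replicate numbers that groups share. Over the 4 inhibitor comparisons and the comparison of the lines, no difference of a member past 1.2-fold changed sign under any alternative. Of the counts of members, 3 moved by over 1.5 times, 2 of them with the threshold and 1 with the filter. At 1.5-fold and at 2-fold 1 member, KLK15, was higher with VER in C4-2B MDVR cells, against 2 at 1.2-fold. With VER in CWR22Rv1 cells 2 members were lower at 1.5-fold and 1 at 2-fold, against 4. Between the lines 3 members were lower in C4-2B MDVR when FPKM had to be over 0.1 in both libraries, against 5, since KLK10 and KLK11 then drop out. The shares of all genes at 1.5-fold and under that filter were not computed. The counts of members in those settings therefore cannot be set against all genes. At least 1 of the raised thresholds was missed by KLK15 with APO and by KLK4 and KLKP1 with VER in C4-2B MDVR, and by KLK10 with APO and KLK2, KLK3 and KLKP1 with VER in CWR22Rv1. The difference of KLK11 with VER in CWR22Rv1 cells passed 1.2-fold under 2 rescalings (-0.31 in each). The rescaling to the same sum (TPM) moved the median difference of genes over 1 FPKM to -0.13 with APO in C4-2B MDVR and to 0.11 in CWR22Rv1 cells, and that without mitochondrial genes to -0.14 and -0.15. Past 2-fold 13.3% of all genes were lower with each inhibitor in C4-2B MDVR, and 16.8% (APO) and 8.92% (VER) in CWR22Rv1, against 35.4%, 34.9%, 39.2% and 32.3% past 1.2-fold.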
